A study of Mus musculus with 6 samples.

Results

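Cyp2f2 and 8 other genes of the cytochrome P450 family (Cyp1b1, Cyp7b1, Cyp4b1, Cyp27a1, Cyp2d22, Cyp4v3, Cyp20a1 and Cyp2u1) were examined together with Por, the reductase that serves most of these enzymes. These 10 genes are among 13734 in the table. Cyp2f2 was chosen by its difference between the groups, the largest rise among the genes tested, so its level is described here and carries no test. The other 9 were selected on family membership and on the role of Por. All 10 had values, and 9 passed the filter on low values; Cyp4b1 did not. Cyp2f2 had at least 1 CPM, reads scaled to a common library size, in all 6 libraries and did not pass through the DICER_KO group alone.

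The cells were an immortalized line of mouse subcutaneous white preadipocytes that carried Dicer1 flox/flox and Cre-ERT2 and had been differentiated in culture into white adipocytes. Dicer1 encodes the nuclease needed to make most mature microRNAs. On day 6 the DICER_KO cells (3 libraries) were given 10 µM 4-hydroxytamoxifen, the ligand that activates Cre-ERT2, for 48 h, and the control cells (3 libraries) were given ethanol. Both groups were then exposed for 6 h to 10 µM isoproterenol, a beta-adrenergic agonist, so no group without isoproterenol was examined. All libraries come from 1 line, and 4-hydroxytamoxifen and the loss of Dicer1 cannot be told apart here. The labels name biological replicates without saying that they were separate cultures, so a p-value measures only the spread between these libraries. Poly(A) RNA was measured, so mature microRNAs were not.

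Cytochrome P450 enzymes are haem proteins, most of which put 1 oxygen atom into steroids, sterols, fatty acids, retinoids, drugs and pollutants. Most of those in the endoplasmic reticulum take electrons from NADPH through Por, at times with help from cytochrome b5, and those in mitochondria take them through ferredoxin reductase and ferredoxin. Liver holds the most P450 protein. Adipose tissue and its stromal cells are known for Cyp1b1, which acts on steroids and aromatic hydrocarbons, and for enzymes that process cholesterol derivatives.

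The reads of the table came to 13569034 to 30268077 per library, the highest in DICER_KO replicate 3. Dicer1 was lower in every DICER_KO library, at 43.1, 44.2 and 44.9 CPM against 70.5, 68.0 and 70.4 CPM in the controls. DICER_KO replicate 3 stood apart from the other 2 libraries of its group, with a chi-square per degree of freedom of 85.5 and 92.8 against them and 8.36 between those 2. Differences are the DICER_KO mean less the control mean of log2 CPM, tested with limma over 10054 genes, and a gene passed at a Benjamini-Hochberg adjusted p under 0.05. Of all genes tested 0.149% passed as higher (15 genes) and 0.288% as lower (29 genes). At shares this low, a short list with no gene passing is near the share of all genes. Without DICER_KO replicate 3 these shares were 12.5% and 7.22%, and without control replicate 3 only 1 gene passed. Every DICER_KO library was above every control for 10.4% of all genes tested and below for 9.81%. The median difference of all genes was 0.02.

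Cyp2f2 is an enzyme of mouse lung club cells and liver that oxidises naphthalene and other small aromatic compounds. The gene (Entrez 13107) spans chr7:27119955-27133660 on the plus strand of GRCm38. The 250 bases before its start in the RefSeq table for GRCm38.p6, chr7:27119705-27119954 on the plus strand, are shown because this gene has the largest rise in the data:

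Cyp2f2: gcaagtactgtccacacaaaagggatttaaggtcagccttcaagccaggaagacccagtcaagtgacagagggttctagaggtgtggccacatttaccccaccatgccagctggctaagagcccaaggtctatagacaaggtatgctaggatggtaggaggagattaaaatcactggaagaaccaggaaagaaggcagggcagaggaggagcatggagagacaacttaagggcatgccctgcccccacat

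Both strands were searched for 6 motifs, whose matches would be in capitals: the Ah receptor core GCGTG, the TATA box TATAAA, the cyclic AMP response element TGACGTCA, the CCAAT box CCAAT, the AP-1 site TGANTCA and the E-box CACGTG. None of these letters was found in this window. Over 32851 promoters of the same length the shares that hold a match were 28.2%, 12.4%, 1.55%, 33.8%, 6.75% and 6.02%, in that order. Over 10104 promoters of tested genes they were 44.3%, 6.71%, 2.47%, 35.4%, 4.94% and 8.36%. No 2 of the 6 motifs share an occurrence in the sequences printed here. The window was 51.6% G or C, against a median of 60% over 7932 promoters of tested genes.

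Cyp2f2 was near the bottom of the measurable range in the controls. The controls held 33, 26 and 50 Cyp2f2 reads, or 1.40, 1.15 and 2.17 CPM. The DICER_KO libraries held 763, 972 and 343 reads, or 43.4, 40.0 and 8.10 CPM. All 3 DICER_KO libraries were above all 3 controls, and DICER_KO replicate 3 lay far below the other 2 of its group. On the log2 CPM scale the means were 0.62 ± 0.46 (SD, n = 3) in the controls and 4.59 ± 1.36 (SD, n = 3) in DICER_KO. The difference was 3.97 (SE 0.53), which is 15.7-fold, and 4.76 (27.1-fold) without DICER_KO replicate 3. Set against the control mean, DICER_KO replicates 1, 2 and 3 were higher by 4.82, 4.70 and 2.40. The next largest rise among the genes tested was that of Itih4, at 3.10. In bulk RNA a change in the number of cells of a kind and a change in RNA per cell cannot be told apart.

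**Figure D1:**
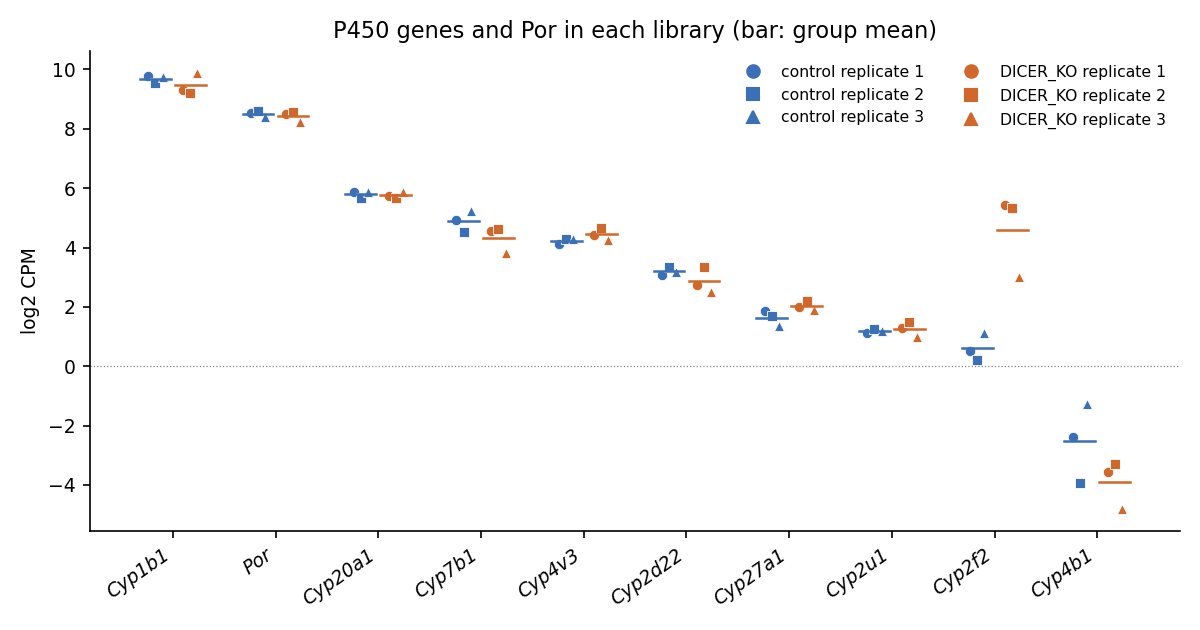
Level of each of the 10 genes in each library, on an axis of log2 CPM, with 1 point per library and the group mean as a bar. The Cyp2f2 groups are separate, with DICER_KO replicate 3 nearest to the controls. The groups of 8 of the other 9 genes overlap, and those of Cyp27a1 do not.

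Genes known to mark the tissues where Cyp2f2 is abundant were near 0 or low in every library. Of 12 club cell markers 4 were in the table and 1 was tested; Scgb1a1, the main secretory protein of club cells, is not analysed here. Sftpb had 0 to 4 reads and Upk3a 0 to 3 reads per library. The summed level of these 4 genes was 13.0 to 15.8 CPM in the controls and 2.27 to 7.10 CPM in DICER_KO, most of it from Aldh1a7. Within DICER_KO it was 7.10, 5.97 and 2.27 CPM in replicates 1, 2 and 3, so it was lowest in the library with the least Cyp2f2 of that group. Of 15 hepatocyte markers 8 were in the table and 1, Gls2, was tested; Alb is not analysed here. Their sum was 11.6 to 14.4 CPM in the controls and 7.16 to 10.0 CPM in DICER_KO. Apoa1, a liver apolipoprotein gene, had 2 to 8 reads and Arg1, a urea cycle gene, 0 to 3 reads per library.

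The summed level of adipocyte markers moved with DICER_KO replicate 3. All 20 adipocyte markers were in the table, and their summed level was 9177 to 11234 CPM in the controls. In DICER_KO it was 15453 and 15388 CPM in replicates 1 and 2 and 4766 CPM in replicate 3. Fabp4 and Lpl had the highest levels of the list in every library and weigh most in this sum. Of the 19 tested, 0 passed in either direction over all libraries, beside 0.149% of all genes as higher and 0.288% as lower. With DICER_KO replicate 3 left out, 15 passed as higher and 1 as lower, beside 12.5% and 7.22% of all genes. The markers did not all move alike: over all libraries differences ran from -2.43 to 0.70, and 13 of the 19 were above 0. For 2 of the 19, Lpl (-0.68) among them, every DICER_KO library was below every control, and for 0 above. The shares of all genes were 9.81% and 10.4%. Adipoq, the adiponectin gene, was at 7.67, 7.55 and 7.62 log2 CPM in the controls and at 8.71, 8.74 and 6.41 in DICER_KO. Cyp2f2 was likewise lowest in replicate 3 among the DICER_KO libraries, and it stayed above the controls there. Of the adipocyte markers in that library, Cidea, which was below the filter, was above the controls and Dgat2 was within their range. Every other marker of the list, Adipoq among them, was below the controls there. Of 15 tested fibroblast markers 0 passed as higher and 1 as lower, the collagen gene Col3a1 (-1.44, limma adjusted p = 0.00856, and 0.0786 without control replicate 3). Summed fibroblast markers, 17 of 18 in the table, were 16350 to 19132 CPM in the controls and 11600 to 12459 CPM in DICER_KO. For 6 of the 15 every DICER_KO library was below every control, beside 9.81% of all genes. Leaving out DICER_KO replicate 3 gave 5 as lower and 0 as higher, beside 7.22% and 12.5% of all genes. Summed macrophage markers, 7 of 12 in the table, were 33.8 to 38.6 CPM in the controls and 38.4 to 39.9 CPM in DICER_KO. Summed endothelial markers, 6 of 10 in the table, were 13.1 to 14.7 CPM and 12.6 to 16.5 CPM. The part of these markers in the Cyp2f2 difference was not tested.

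The tested genes near Cyp2f2 on the chromosome had differences between -0.59 and 0.34. Within 500 kb the table held 16 other genes, all on the side of higher coordinates, and 12 were tested. None passed in either direction over all libraries with limma, beside 0.149% of all genes as higher and 0.288% as lower. With limma-voom on the recovered reads 0 passed, beside 34 of all genes tested. At an unadjusted limma p under 0.05 there was 1 of the 12, as lower: Ltbp4, a gene of latent TGF-beta binding. Of all 10054 genes tested, 854 were higher and 739 lower at that level. Their differences ran from -0.59 for Ltbp4 (adjusted p = 0.187) to 0.34 for Akt2, an insulin signalling kinase (adjusted p = 0.333). Egln2, an oxygen-sensing hydroxylase gene 24998 bases away, differed by 0.06 with a 95% interval of -0.17 to 0.28. Snrpa, which encodes a splicing protein, differed by -0.10, Coq8b of ubiquinone synthesis by -0.23, Numbl by -0.17 and Blvrb, a biliverdin reductase gene, by 0.04. Sertad3, Sertad1, Prx, Pld3 and 2310022A10Rik were between -0.34 and -0.10. Without DICER_KO replicate 3, Akt2 passed as higher (0.56) and Ltbp4 (-0.65) and Sertad1 (-0.48) as lower, beside 12.5% and 7.22% of all genes. The nearest gene, the P450 gene Cyp2t4 at 20.1 kb, had 3 to 17 reads per library and was below the filter, as were Mir1191, Sptbn4 and Hipk4.

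**Figure D2:**
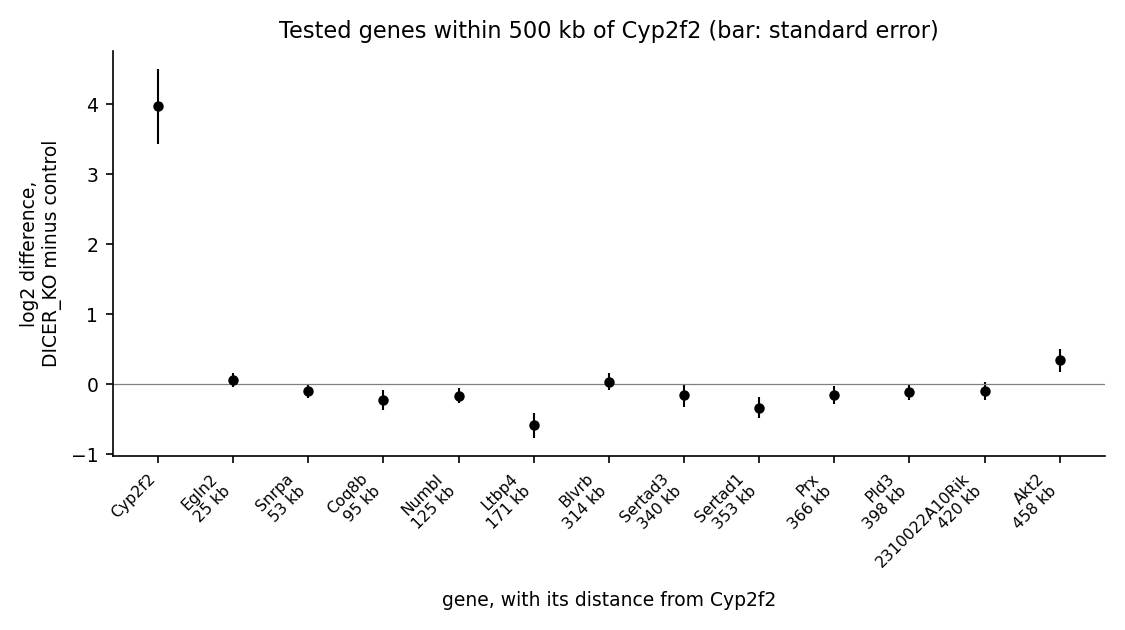
Log2 difference, DICER_KO minus control, with its standard error, for Cyp2f2 and the 12 tested genes within 500 kb, in order of distance. Cyp2f2 lies at 3.97 and the others between -0.59 and 0.34.

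The 5 genes whose levels followed Cyp2f2 most closely were named by Pearson r over the 6 libraries among 8247 tested genes with a mean of at least 5 CPM. The r describes both the gap between groups and the place of DICER_KO replicate 3, and 473 genes had an r above 0.9. Slc16a9, a monocarboxylate transporter family gene, had r = 0.997, with 4.51, 4.23 and 4.65 CPM in the controls and 7.62, 7.66 and 5.67 CPM in DICER_KO. Acod1, which makes itaconate, and St6gal1, a sialyltransferase gene, both had r = 0.992. Osbpl1a, an oxysterol-binding protein family gene, had r = 0.990, and Itih4, which encodes a plasma protein of the acute phase, r = 0.989. Their separate groups, with replicate 3 of DICER_KO nearest to the controls, follow from the choice by r. So do their differences, which are given as a description with no test: 1.59 for Acod1, 3.10 for Itih4, 0.63 for Slc16a9, 0.66 for St6gal1 and 0.36 for Osbpl1a. Without DICER_KO replicate 3 they were 1.82, 3.57, 0.77, 0.75 and 0.44 in the same order. Within the P450 family, r with Cyp2f2 ran from -0.84 for Cyp2j6 to 0.82 for Cyp26c1.

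**Figure D3:**
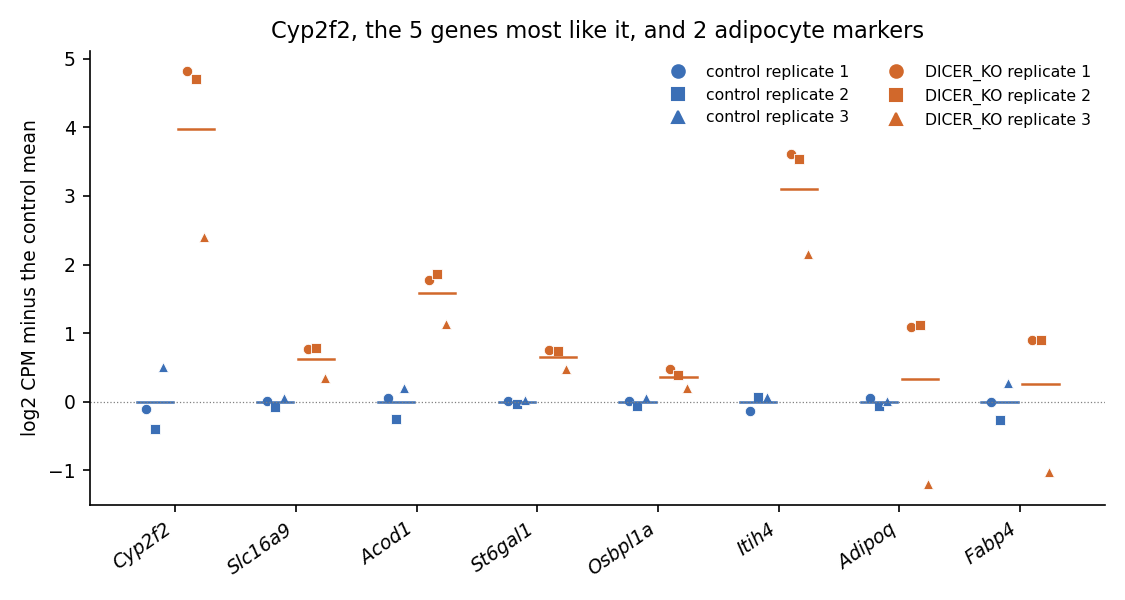
Level of Cyp2f2, the 5 genes with the highest r and the adipocyte markers Adipoq and Fabp4, as log2 CPM minus the mean of the 3 controls, in each library, with the group mean as a bar. DICER_KO replicate 3 lies between the controls and the other DICER_KO libraries for Cyp2f2 and the 5 genes like it. It lies below the controls for both adipocyte markers drawn. For the markers Cidea and Dgat2, which are not drawn, it was not below the controls.

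The table held 34 genes with a symbol of the Cyp form, called P450 genes here, of which 18 were tested. P450 proteins under other symbols, such as Ptgis, are not in these counts. Apart from Cyp2f2, 17 were tested and 0 passed in either direction with limma, beside 0.149% of all genes as higher and 0.288% as lower. With limma-voom 0 passed, beside 34 of all genes tested. At an unadjusted limma p under 0.05 there were 0 higher and 2 lower, Cyp7b1 and Cyp51. Of all 10054 genes tested, 854 were higher and 739 lower at that level. The 17 had a median difference of -0.04, beside 0.02 for all genes. Every DICER_KO library was above every control for Cyp27a1 and below for Cyp51, 1 of 17 in each direction beside 10.4% and 9.81% of all genes. Without DICER_KO replicate 3, Cyp1b1, Cyp51 and Cyp2j6 passed as lower and 0 as higher, beside 7.22% and 12.5% of all genes. Of the 16 genes below the filter, 15 were under 1 CPM in every library. In a fit with no filter none of these 16 passed; the lowest adjusted p was 0.223, for Cyp27b1, the vitamin D hydroxylase gene, with 5 to 21 reads per library.

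**Figure D4:**
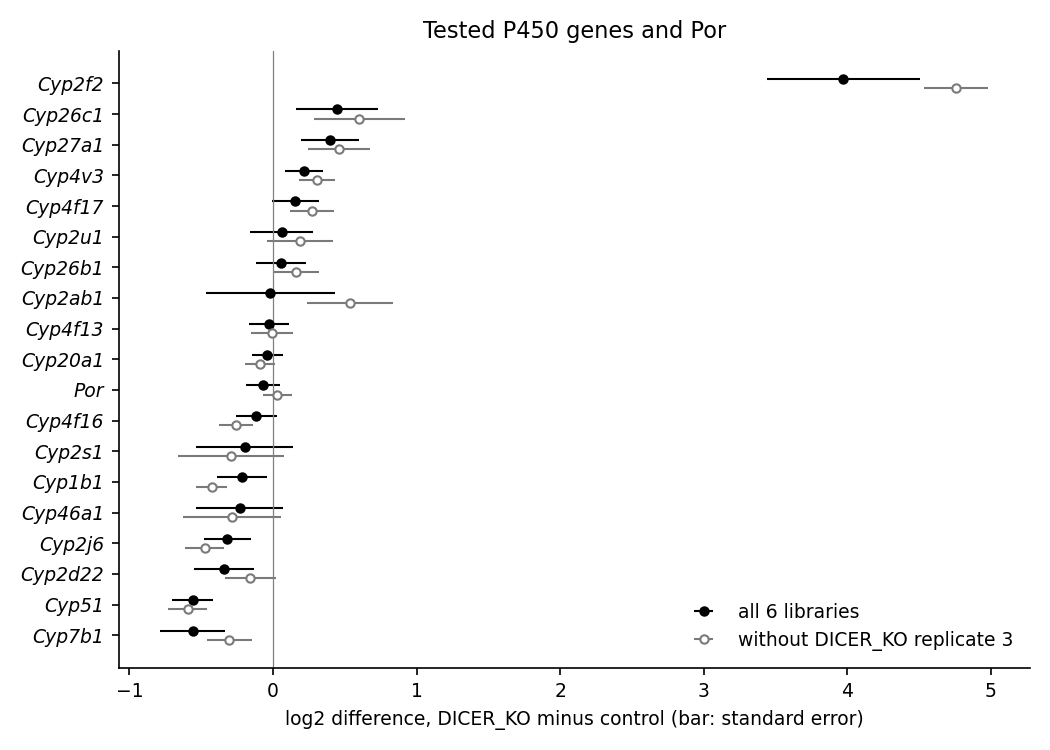
Log2 difference, DICER_KO minus control, of the tested P450 genes and Por over all libraries and without DICER_KO replicate 3. Bars are standard errors. Cyp2f2 lies at 3.97 and 4.76, and over all libraries the other P450 genes lie between -0.56 and 0.44.

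Cyp1b1 was the P450 gene with the highest level per length in every library. It oxidises oestradiol and polycyclic aromatic hydrocarbons and is a known target gene of the Ah receptor, a sensor of aromatic ligands. The gene (Entrez 13078) lies at chr17:79706940-79715061 on the minus strand. Its 250 upstream bases, chr17:79715062-79715311 on the minus strand, are shown for comparison with Cyp2f2, with the Ah receptor core in capitals:

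Cyp1b1: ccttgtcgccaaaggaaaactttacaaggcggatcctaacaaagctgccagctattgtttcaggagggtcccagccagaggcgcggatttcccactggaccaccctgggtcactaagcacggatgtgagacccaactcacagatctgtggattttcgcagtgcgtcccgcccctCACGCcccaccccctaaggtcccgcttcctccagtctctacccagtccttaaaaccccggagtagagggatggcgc

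This window holds 1 match, on the opposite strand, whose first printed base is at -76 from the start, and none of the other 5 motifs. The same letters occur in the upstream windows of Cyp4v3 (1 match), Cyp20a1 (2) and Por (3). Promoters were found for 7 of the 10 genes, and such a match is a description of letters and not of binding.

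Cyp1b1 levels were 9.77, 9.53 and 9.74 log2 CPM in the controls and 9.30, 9.21 and 9.89 in DICER_KO. Replicates 1 and 2 of DICER_KO were below every control and replicate 3 was above every control. The difference of -0.21 (SE 0.17, 95% interval -0.60 to 0.17) did not pass (limma adjusted p = 0.525). Without replicate 3 it was -0.43 (adjusted p = 0.00992), so this library alone decides the call. Of 7 tested Ah receptor pathway genes 0 passed over all libraries, beside 0.149% of all genes as higher and 0.288% as lower. Their median was -0.05. Ahr, the receptor gene, was at 5.32, 5.16 and 5.55 log2 CPM in the controls and 4.97, 5.08 and 4.77 in DICER_KO, lower in each DICER_KO library (-0.40, adjusted p = 0.222). Its repressor Ahrr differed by -0.12 (adjusted p = 0.789) and its target gene Tiparp by -0.05 (adjusted p = 0.856). Nqo1, a quinone reductase gene that answers to both the Ah receptor and Nrf2, was at 5.36, 5.19 and 5.47 log2 CPM in the controls and 6.32, 5.77 and 6.24 in DICER_KO. Its groups did not overlap, and its difference of 0.77 had an adjusted p of 0.0679; it passed with no filter on low values (0.0469) and without DICER_KO replicate 2 (0.0219) or replicate 3 (0.00262). Fmo1, a flavin monooxygenase gene, was the other member of this list to pass as higher without replicate 3 (1.68). In that setting 2 of the 7 passed as higher and 1 as lower, beside 12.5% and 7.22% of all genes. With all libraries Fmo1 differed by 0.92 (limma adjusted p = 0.377), and DICER_KO replicate 3 was below every control.

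Cyp7b1 and Cyp27a1 act on side-chain oxidised cholesterol. Cyp27a1, in mitochondria, adds a hydroxyl group to the cholesterol side chain, and Cyp7b1, in the endoplasmic reticulum, hydroxylates the resulting oxysterols and some steroids. Cyp7b1 (Entrez 13123; chr3:18071944-18243890, minus strand) was at 4.93, 4.52 and 5.23 log2 CPM in the controls and 4.55, 4.62 and 3.82 in DICER_KO. The lowest value was in DICER_KO replicate 3, and replicates 1 and 2 lay within the range of the controls. The difference was -0.56 (SE 0.23, 95% interval -1.06 to -0.06), with a limma adjusted p of 0.284, and it was -0.31 without replicate 3. Cyp27a1 (Entrez 104086; chr1:74713148-74737897, plus strand) was at 1.85, 1.68 and 1.35 log2 CPM in the controls and 1.98, 2.19 and 1.90 in DICER_KO. Its groups did not overlap, and the difference was 0.40 (SE 0.20, 95% interval -0.05 to 0.84, adjusted p = 0.355). These enzymes thus had differences of opposite sign, neither past the threshold.

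Of 9 tested genes of oxysterol metabolism and sensing 0 passed, beside 0.149% of all genes as higher and 0.288% as lower. Their median was 0.08. Ch25h, the other main oxysterol-forming hydroxylase gene, differed by -0.10 (adjusted p = 0.685). Hsd3b7, which acts on sterols after the hydroxylation by Cyp7b1, was at 4.92, 5.03 and 4.93 log2 CPM in the controls and 5.41, 5.46 and 5.03 in DICER_KO (0.34, adjusted p = 0.265). Without DICER_KO replicate 3, Hsd3b7 (0.48) and the sterol exporters Abca1 (0.98) and Abcg1 (0.73) passed as higher, and 0 as lower. The shares of all genes in that setting were 12.5% and 7.22%. With all libraries Abca1 differed by 0.57 and Abcg1 by 0.36 (limma adjusted p = 0.331 and 0.456). For both, DICER_KO replicate 3 was below every control. Cyp51, the lanosterol demethylase of cholesterol synthesis, was at 5.70, 5.25 and 5.74 log2 CPM in the controls and 5.04, 4.89 and 5.07 in DICER_KO. All DICER_KO libraries were below all controls, and the difference of -0.56 (SE 0.14) had an adjusted p of 0.116, or 0.00661 without replicate 3. Cyp46a1, a cholesterol hydroxylase gene known from neurons, differed by -0.23 (SE 0.30, adjusted p = 0.704).

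Cyp4b1 and Cyp4v3 belong to the subfamilies that hydroxylate fatty acids at the far end of the chain. Cyp4b1 (Entrez 13120; chr4:115624698-115647721, minus strand) had 4, 1 and 9 reads in the controls and 1, 2 and 1 in DICER_KO, too few to compare. Cyp4v3 (Entrez 102294; chr8:45305801-45333163, minus strand) is the mouse counterpart of the human gene of a crystalline retinal dystrophy. It was at 4.12, 4.27 and 4.29 log2 CPM in the controls and 4.42, 4.65 and 4.26 in DICER_KO. Only DICER_KO replicate 3 fell within the control range, and the difference was 0.22 (SE 0.13, 95% interval -0.08 to 0.51, adjusted p = 0.423). Other tested genes of this clan were Cyp4f13 (-0.03), Cyp4f16 (-0.12) and Cyp4f17 (0.16), whose reads may be shared between near copies of the Cyp4f cluster.

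Cyp2u1, Cyp20a1 and Cyp2d22 also had groups that overlapped. Cyp2u1 (Entrez 71519; chr3:131290491-131304157, minus strand), a fatty acid hydroxylase gene, was at 1.13, 1.27 and 1.19 log2 CPM in the controls and 1.27, 1.50 and 1.00 in DICER_KO. The difference was 0.06, with a 95% interval of -0.42 to 0.54, and its sign turned without DICER_KO replicate 2 (-0.06). Cyp20a1 (Entrez 77951; chr1:60343300-60388060, plus strand), an enzyme with no settled substrate, was at 5.87, 5.67 and 5.88 log2 CPM against 5.75, 5.68 and 5.87. Its difference of -0.04 had the 95% interval -0.28 to 0.20, and its sign also turned without DICER_KO replicate 2 (0.0037). Cyp2d22 (Entrez 56448; chr15:82370527-82380260, minus strand), of the drug-oxidising CYP2D subfamily, was at 3.07, 3.35 and 3.18 log2 CPM in the controls and 2.75, 3.33 and 2.50 in DICER_KO. The difference was -0.34 (SE 0.21, 95% interval -0.80 to 0.12, adjusted p = 0.423), and reads may be shared with near copies in the Cyp2d cluster. Outside the 10 genes, Cyp2j6 differed by -0.32 (adjusted p = 0.360), Cyp26c1, a retinoic acid hydroxylase gene, by 0.44 (0.440) and Cyp2s1 by -0.20 (0.777). Cyp2j6 was at 3.81, 3.84 and 3.88 log2 CPM in the controls and 3.22, 3.52 and 3.84 in DICER_KO, so only replicate 3 reached the control range.

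Por (Entrez 18984; chr5:135670040-135735326, plus strand) passes electrons from NADPH to the oxygen-inserting P450 enzymes of the endoplasmic reticulum. It was at 8.53, 8.61 and 8.38 log2 CPM in the controls and 8.50, 8.57 and 8.24 in DICER_KO. The groups overlapped, and the difference was -0.07 (SE 0.12, 95% interval -0.34 to 0.20, limma adjusted p = 0.779) and 0.03 without DICER_KO replicate 3. Thus the interval holds changes of at most 0.34 in size on the log2 scale, while Cyp2f2 differed by 3.97. Of 10 tested redox partners 0 passed, beside 0.149% of all genes as higher and 0.288% as lower. Their median was 0.17. Cyb5a, the cytochrome b5 of the endoplasmic reticulum, was at 7.73, 7.54 and 7.76 log2 CPM in the controls and 8.56, 8.33 and 7.70 in DICER_KO. It was higher in replicates 1 and 2 alone (0.52, adjusted p = 0.248; 0.77 and 0.000147 without replicate 3). Cyb5b and Pgrmc2 were the other redox genes to pass as higher in that setting (0.34 and 0.40). That made 3 of the 10 as higher and 0 as lower, beside 12.5% and 7.22% of all genes. Cyb5r3, the reductase of cytochrome b5, differed by 0.01, with a negative sign under median-of-ratios scaling (-0.01). The mitochondrial ferredoxin reductase gene Fdxr differed by 0.13 (adjusted p = 0.659).

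Haem supply and breakdown also held no gene past the threshold over all libraries, beside 0.149% of all genes as higher and 0.288% as lower. Of 9 tested genes of haem synthesis 0 passed in either direction (median 0.10). Alas1, the rate-limiting enzyme of the pathway, was at 7.48, 7.46 and 7.30 log2 CPM in the controls and 7.80, 7.85 and 7.09 in DICER_KO (0.17, adjusted p = 0.631). It passed as higher without replicate 3 (0.41). In that setting 2 of the 9 passed as higher and 0 as lower, beside 12.5% and 7.22% of all genes. Of 8 tested genes of haem breakdown and binding 0 passed (median 0.05). Hmox1, the haem oxygenase that opens the ring, was lower in every DICER_KO library, at 9.59, 9.39 and 9.50 log2 CPM against 9.86, 9.91 and 9.67 (-0.32, adjusted p = 0.249). Hmox1 was the 1 gene of this list to pass without replicate 3 (-0.33), beside 12.5% of all genes as higher and 7.22% as lower.

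Further lists cover the receptors that control P450 genes and the enzymes that take over their products. Of 10 tested nuclear receptors 0 passed over all libraries, beside 0.149% of all genes as higher and 0.288% as lower. Their median was 0.07. Without DICER_KO replicate 3, the lipid sensors Ppara (1.65), Nr1h3 (0.95), Pparg (0.58) and Esrra (0.36) passed as higher. Vdr, the vitamin D receptor gene, passed as lower (-0.59), so 4 and 1 of the 10 passed, beside 12.5% and 7.22% of all genes. With all libraries these genes differed by 0.96, 0.65, 0.36, 0.18 and -0.64 in that order. Their limma adjusted p values were 0.317, 0.215, 0.319, 0.536 and 0.0718. DICER_KO replicate 3 was below every control for Ppara, Pparg and Esrra and within their range for Nr1h3. Of 15 tested genes of epoxide and conjugation enzymes 0 passed (median 0.15), beside the same 0.149% and 0.288% of all genes. Ephx1, the microsomal epoxide hydrolase gene, differed by 0.20 (adjusted p = 0.360). Without replicate 3, 6 of the 15 passed as higher and 0 as lower, beside 12.5% and 7.22% of all genes. Among them were Ephx2, the soluble epoxide hydrolase gene (2.04), and Cbr1, a carbonyl reductase gene (0.67). With all libraries Ephx2 differed by 1.33 and Cbr1 by 0.38 (limma adjusted p = 0.225 and 0.368). For both, DICER_KO replicate 3 was below every control. Of 7 tested flavin monooxygenases and related oxidases 0 passed (median -0.14), beside the same 0.149% and 0.288% of all genes. Ptgis, the P450 protein that makes prostacyclin, was lower in each DICER_KO library (-0.30, adjusted p = 0.260). Without replicate 3 Ptgis (-0.34) and Fmo2 (-0.74) passed as lower and Fmo1 as higher, beside 7.22% and 12.5% of all genes. Genes named here for passing without that library were chosen after their values were seen, and the library was also the lowest in adipocyte markers; the part of those markers was not tested.

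**Figure D5:**
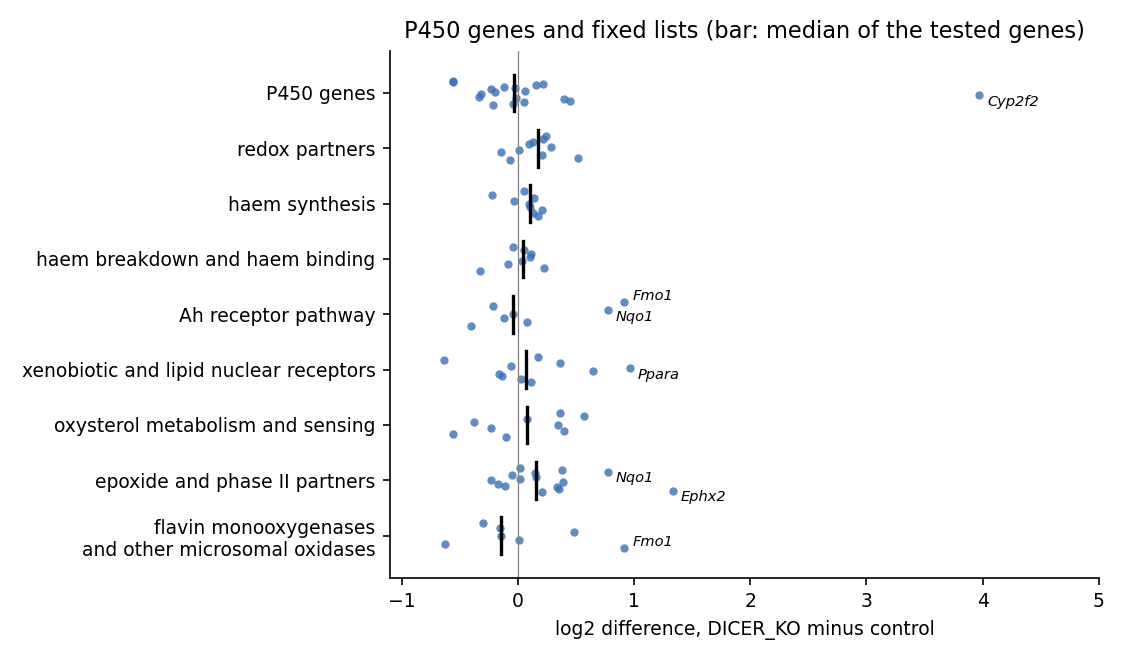
Log2 difference, DICER_KO minus control, over all libraries for the tested P450 genes and the tested genes of the 8 pathway lists, with 1 point per gene and each list's median as a bar. The medians of the pathway lists lie between -0.14 and 0.17. Of these lists 0 genes passed the threshold, beside 0.149% of all genes as higher and 0.288% as lower.

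Levels were compared between genes as CPM per kb of exon, which corrects for transcript length. In the controls the order was Cyp1b1 (141 ± 12.2 CPM per kb, SD, n = 3), Por (90.7 ± 7.15), Cyp20a1 (24.5 ± 1.93), Cyp7b1 (14.0 ± 3.33), Cyp4v3 (4.92 ± 0.325), Cyp2d22 (2.35 ± 0.234), Cyp27a1 (1.42 ± 0.245), Cyp2f2 (0.777 ± 0.263), Cyp2u1 (0.433 ± 0.0202) and Cyp4b1 (0.0894 ± 0.0778). The control libraries of neighbours in this order did not overlap. In DICER_KO Cyp2f2 moved from place 8 to place 4 (15.1 ± 9.62 CPM per kb), where its libraries overlapped those of Cyp7b1 (9.56 ± 2.65). This place rests on replicates 1 and 2: in replicate 3 Cyp2f2, at 4.00 CPM per kb, was below Cyp7b1 (6.52) and Cyp4v3 (5.04). Those of Cyp7b1 overlapped Cyp4v3 (5.74 ± 0.783), and those of Cyp2d22 overlapped Cyp27a1. Por was at 86.7 ± 10.2 CPM per kb and Cyp1b1 at 124 ± 33.9.

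Among the 34 P450 genes Cyp2f2 ranked 13, 14 and 13 per length in the controls and 3, 3 and 7 in DICER_KO. It made up 0.347% ± 0.0976 (SD, n = 3) of the summed P450 level per kb in the controls and 10.7%, 10.2% and 1.69% in DICER_KO replicates 1, 2 and 3. Cyp1b1 made up 63.5% ± 1.08 in the controls and 53.7%, 51.9% and 68.8% in DICER_KO. Even where Cyp2f2 was highest, Cyp1b1 and Cyp20a1 had higher levels per length.

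Since Dicer1 makes microRNAs, the 3′ UTRs of the members were searched for the 7-base matches to the seeds (bases 2 to 8) of 11 microRNAs that are common in fat and connective tissue. The mature sequences of those with a match, with the seed in capitals, are from RefSeq:

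miR-16: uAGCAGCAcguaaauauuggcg

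miR-24: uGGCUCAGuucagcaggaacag

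miR-26a: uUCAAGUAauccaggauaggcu

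Cyp2f2 had a 3′ UTR of 263 bases in GENCODE M21, with none of the 11 matches. The median length over 9507 tested genes was 1199 bases, and 31.1% of these genes held none. Cyp1b1, with 3140 bases, held 1 match to miR-16 and none to miR-27b, known from human CYP1B1. Cyp2u1, with 2688 bases, held 1 match to miR-16, 2 to miR-24 and 1 to miR-26a. The other 7 genes, with 233 to 1992 bases, held none. The sites, with the matched letters in capitals, are:

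Cyp1b1 and miR-16, chr17:79707491-79707520, minus strand: cagagggacttctttTGCTGCTcaccatgt

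Cyp2u1 and miR-16, chr3:131291048-131291077, minus strand: agacagccttcctatTGCTGCTgagcatgg

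Cyp2u1 and miR-24, chr3:131289993-131290022, minus strand: ggaaccatggtgatgCTGAGCCtttcttag

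Cyp2u1 and miR-24, chr3:131289834-131289863, minus strand: actggagagcactttCTGAGCCccatctca

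Cyp2u1 and miR-26a, chr3:131288701-131288730, minus strand: aaagatttcacatcgTACTTGAaaaggact

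The miR-24 and miR-26a sites of Cyp2u1 lie beyond the RefSeq span given above, since the GENCODE 3′ UTR runs further. The seed match of miR-16 was present in 24.5% of the 9507 tested genes with a 3′ UTR, that of miR-24 in 19.2% and that of miR-26a in 11.4%. Neither Cyp1b1 (-0.21) nor Cyp2u1 (0.06) passed over all libraries. A match of letters shows no targeting, and microRNA levels were not measured here.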

How the data were processed

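Poly(A) RNA libraries (NEBNext Ultra II) from 3 control and 3 DICER_KO samples were sequenced, per the labels' protocols. The authors deposited log2 CPM values, 1 column per library, and 0 columns belong to other samples. Tools listed in the submitters' processing notes are HISAT2, featureCounts, edgeR, Trimmomatic and FastQC, with no version or role, and the builds listed are GRCm38 and mm10. The deposited log2 values equal log2 of (k + 0.5) / (N + 1), scaled to CPM, with k whole for 100% of values at a tolerance of 0.01 reads; the reads and CPM given here were recovered that way. N ran from 17594568 to 42331787 and may carry a scaling factor, and reads of the table were 71.5 to 77.1% of it. Counting is not stated to use strand, so antisense reads cannot be told apart.

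Symbols came from the RefSeq annotation of GRCm38.p6 (13682 of 13734 IDs matched). Cyp51 was matched through the older symbol Cyp51a1. A limma fit (version 3.58.1, in R 4.3.3) was made on the deposited log2 values, with a trend of variance on level and group as its 1 term. Genes entered with 1 CPM or more in 3 or more libraries. The Benjamini-Hochberg adjustment covers every gene that entered. The fit was tested on simulated data. The labels do not say whether replicate numbers pair the libraries. Deviations from the group means had correlations of 0.195, -0.0142 and -0.0786 between same-numbered libraries. Between libraries of different number they ran from -0.227 to 0.166. With so few libraries these values cannot exclude a pairing. Alternatives changed scaling, filter, pseudocount, test, replicate term and libraries.

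Members and lists were chosen with earlier results of these data known. Of 191 entries in 14 lists 149 matched; the rest, Fdx1 among them, are not analysed here. Named genes are the members, the 5 other P450 genes with the largest difference, list genes past the threshold, a set of P450 partner genes, the 5 genes most like Cyp2f2 and genes within 500 kb of it; others were named after their values were seen. A result on 1 list gene is not reported here. Promoters are the 250 bases before RefSeq starts, and the longest 3′ UTR per gene came from GENCODE M21. No 2 libraries of a group agreed within sampling noise (chi-square per degree of freedom 8.36 to 92.8). Other steps ran in Python 3.11.15 with pandas 2.3.3, numpy 2.4.6, matplotlib 3.10.9 and scipy 1.17.1.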

Additional observations from a re-analysis of the deposited data

How the results depend on the processing

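The Cyp2f2 difference ran from 3.33 to 4.76 on the log2 scale under the alternatives. Its positive sign throughout is no support, since the gene was chosen for its rise in these same values. The number of genes past the threshold, 15 higher and 29 lower, was 6 and 13 without the intensity trend. It was 0 and 2 with a replicate block, and whether the numbers pair the libraries is not known. Leaving out 1 library gave 0 to 1257 higher and 1 to 726 lower: 4 and 7 without control replicate 1, 3 and 7 without control 2, 0 and 1 without control 3, 14 and 22 without DICER_KO replicate 1, 7 and 12 without DICER_KO 2, and 1257 and 726 without DICER_KO 3. With that block Col3a1 no longer passed (limma adjusted p = 0.109). The P450 genes other than Cyp2f2 past the threshold were 0 higher in all alternatives, and 0 to 3 lower when 1 library was left out (3 without DICER_KO 3). The sign turned for 9 genes. Cyb5r3 was -0.00916 with median-of-ratios scaling. With 1 library left out, Cyb5r3 ran from -0.0445 to 0.0802, Por from -0.136 to 0.0290, Cyp20a1 from -0.108 to 0.00370, Cyp2u1 from -0.0608 to 0.189, Cyp46a1 from -0.362 to 0.0150, Cyp2s1 from -0.515 to 0.0435, Blvrb from -0.0717 to 0.130, Ahrr from -0.359 to 0.0767 and Tiparp from -0.141 to 0.0307. Of the values of the 45 named genes under the alternatives, 588 kept sign and side of the threshold and 17 moved past it (15 without DICER_KO 3). Another 7 fell short of it and 13 turned sign. Cyp2f2 is counted among the 588 on the size of its difference alone, since it carries no test. The 5 genes chosen by r with Cyp2f2 are counted too, and for them these counts are no support. Beyond the libraries themselves, the cause was not tested. The SE of the Cyp2f2 difference was 0.53 over all libraries and 0.22 without DICER_KO 3. With 26 to 50 Cyp2f2 reads per control library, counting error adds to the uncertainty of its fold change. For Cyp4b1, at 1 to 9 reads, no difference was detectable at this depth.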
